A study of Homo sapiens with 2 samples.

Results

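Cytosolic ribosomal protein genes, the genes for the protein components of the ribosomes in the cytoplasm, were followed in SAS cells and in eSAS cells. They were chosen by name alone: a gene symbol of the array that begins with RPL or RPS and a digit, or is RPLP0, RPLP1, RPLP2 or RPSA, without the ribosomal S6 kinases and the Y-linked RPS4 copies. This took in 92 of 30484 gene names, with 216 of 41000 probes and 225 of 43376 probe spots on each array. Of the 92, 77 were the genes of the ribosome itself, called core genes here, with 31 in the small subunit, 43 in the large subunit and 3 in the P stalk. The others were 8 paralogs, 6 pseudogene names and RPS19BP1, which encodes a protein that binds RPS19 and is no part of the ribosome.

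SAS is an established line from a human tongue squamous cell carcinoma. eSAS is the population that was left after 5 rounds in which spheroids of SAS cells were caught on the removable mesh of a filter tube and grown again. It is a selected population of cells and is compared here with the parental line. Total RNA was taken from both in the log phase of growth, and 1 array per group was hybridised, both on 1 slide. With so few arrays the precision is limited, the groups could not be tested against each other and p-values are absent throughout. A difference between the populations cannot be told apart from one between the cultures, extractions or hybridisations. In RNA of a whole culture, fewer cells that express a gene and less RNA per cell cannot be told apart either.

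A ribosome holds each core protein in a single copy, apart from the paired proteins of the stalk, and cells make the proteins in matched amounts. Their mRNAs are among the most abundant in growing cells. Most begin with a C followed by an unbroken run of C and T bases, the terminal oligopyrimidine (TOP) tract, through which translation of these mRNAs is coupled to mTOR signalling and growth conditions. Loss of 1 copy of several of these genes causes Diamond-Blackfan anaemia, and unassembled proteins such as RPL5 and RPL11 bind MDM2 and stabilise p53.

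The tract was read in the RefSeq start table of GRCh38.p14 as a C at the annotated start followed by at least 4 bases that were C or T, on the strand of the gene. Of the 77 core genes, 62 had a start in the table, and 15 had none, among them RPL23, RPL23A, RPL30, RPL37, RPL5, RPL7, RPL8, RPS15A, RPS2 and RPS20. A tract stood at 46 of 77 core starts (59.7%), which belonged to 46 of the 62 genes, against 1429 of all 35116 starts in the table (4.07%). Among other genes of the pathway, 11 of 13 starts of translation factors of the TOP class, 6 of 45 starts of ribosome biogenesis genes and 6 of 90 starts of mitochondrial ribosomal protein genes held it. The windows below run from 15 bases before the annotated start to 15 bases from it, 5′ to 3′, with the tract in capitals. They are shown for the core genes whose mRNAs lay highest and lowest in eSAS, for the stalk and RPSA, and for the paralogs RPS27L and RPL10L, whose starts hold no tract.
RPL38: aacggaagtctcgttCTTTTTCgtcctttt
RPS13: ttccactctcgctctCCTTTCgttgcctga
RPS12: gcgtgcggatgaggcCTCTTTCCCTgccgc
RPS24: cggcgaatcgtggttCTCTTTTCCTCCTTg
RPS6: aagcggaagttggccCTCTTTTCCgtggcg
RPL10: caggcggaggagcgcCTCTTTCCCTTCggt
RPL39: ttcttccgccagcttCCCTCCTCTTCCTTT
RPL27A: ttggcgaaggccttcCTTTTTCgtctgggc
RPLP0: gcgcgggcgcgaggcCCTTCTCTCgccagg
RPLP1: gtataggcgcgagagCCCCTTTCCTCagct
RPLP2: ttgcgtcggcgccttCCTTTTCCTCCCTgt
RPSA: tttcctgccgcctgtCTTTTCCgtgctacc
RPS27L: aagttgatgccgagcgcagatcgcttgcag
RPL10L: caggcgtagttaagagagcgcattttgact
On the plus strand of GRCh38.p14 lie the windows of RPL38 (chr17:74203663-74203692), RPS12 (chr6:132814554-132814583), RPS24 (chr10:78033848-78033877), RPL10 (chrX:154398362-154398391), RPL27A (chr11:8682777-8682806), RPLP1 (chr15:69452803-69452832), RPLP2 (chr11:809952-809981) and RPSA (chr3:39406705-39406734). On the minus strand lie those of RPS13 (chr11:17077653-17077682), RPS6 (chr9:19380222-19380251), RPL39 (chrX:119791616-119791645), RPLP0 (chr12:120201097-120201126), RPS27L (chr15:63157463-63157492) and RPL10L (chr14:46651767-46651796). The tract of RPL39 is 19 bases long and runs past the window. For RPL10 the table has 3 starts, of which the 1 shown holds a tract.

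Values below are the scanner software's processed signal, a background-subtracted brightness, and its log2 after each array's 75th percentile was taken as 0 (1242 for SAS, 1196 for eSAS). A log2 ratio is eSAS minus SAS on that scale, so a value above 0 means higher in eSAS, and the value of a gene is the mean over its probes. Of the member probes, 213 of 216 were well above background on both arrays, 210 remained after 3 probes with a spot marked as uneven on the SAS array were left out, and none was saturated. These gave a value for 91 of the 92 gene names and for 76 of the 77 core genes. Of the 191 core probes used, 79 (41.4%) had a signal of at least 100000 as the mean of both arrays, against 145 of 26449 probes of other gene names (0.548%).

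**Figure D1:**
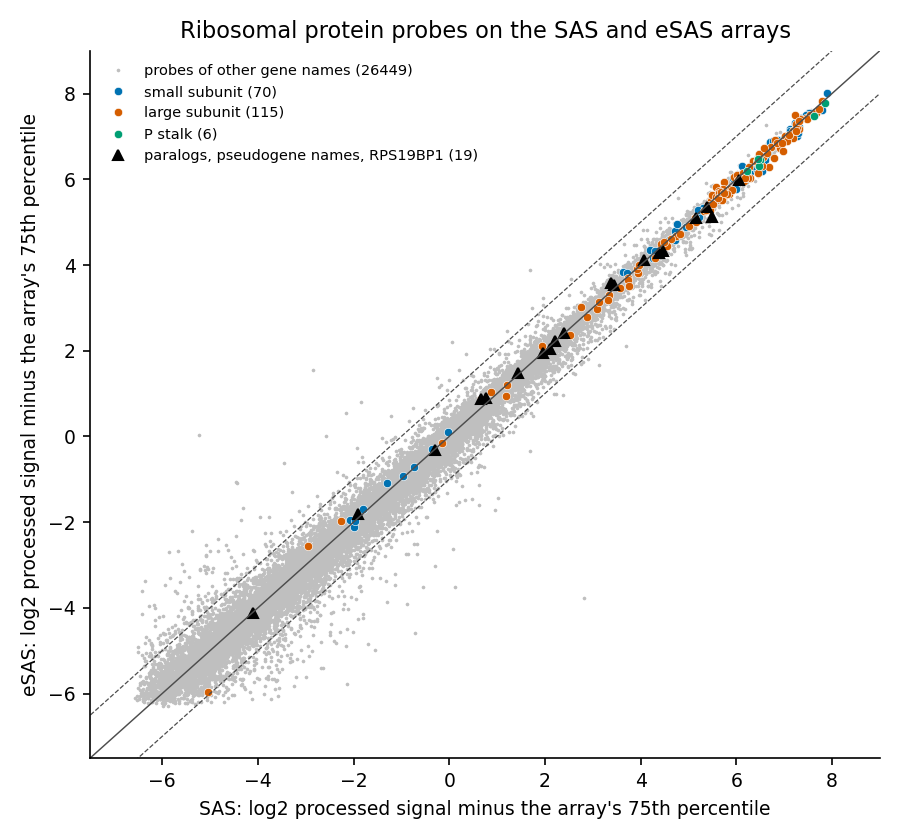
Each point is a probe well above background on both arrays, with its log2 level on the SAS array (x axis) against that on the eSAS array (y axis), each relative to the array's 75th percentile; the solid line marks equal levels and the dashed lines a difference of 2-fold. The core probes (small subunit, large subunit and P stalk in colour) sit at the bright end and close to the line, all within 2-fold.

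The core genes as a group lay close to all genes. The median log2 ratio of the 76 was -0.028 (SD 0.10), while that of all 19467 gene names with a value was -0.0012 (SD 0.37). Of the 76, 24 were higher and 52 lower in eSAS, so 31.6% were higher against 49.8% of all gene names. That split moved with the scaling, to 12 higher with unscaled arrays, 36 after quantile normalization and 41 after centring on the median, where the median of the core genes was 0.0055. The median of all gene names moved too, to -0.056, 0.015 and 0.033 in turn, so the 49.8% does not apply to these counts. The core median minus the median of all gene names was -0.027 with the 75th percentile, without scaling and with centring on the median, and -0.016 after quantile normalization.

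No core gene differed by much between these arrays. A log2 ratio of 0.32 in either direction was taken as the smallest difference to count. None was that much higher in eSAS, against 9.17% of all gene names, and 3 were that much lower, against 11.9%. The remaining 73 lay between these limits. After centring on the median or quantile normalization 1 core gene, RPL10, was that much lower, and without background correction 1, RPL38, was that much higher. At 1.5-fold, none of the 76 was higher or lower, against 3.19% higher and 4.99% lower over all gene names, and at 2-fold the shares over all gene names were 1.01% and 1.37%.

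The technical spread was of the same order as most of these values. Probes spotted repeatedly had an SD of 0.075 between their spots in the log2 ratio (pooled over 211 probes, with a median of 0.039). Of the 76 core genes, 35 lay further from 0 than 0.075. Both quartiles of all gene names, -0.14 and 0.13, lay beyond it too, and those of the core genes were -0.094 and 0.024. The software's own error of each signal came to 0.20 for the log2 ratio of the median core probe. Of the 191 core probes, 165 lay within their error, 26 beyond it and 2 beyond 2 times it. Those 2 were a dim probe of RPL10 and a probe of RPL39. The same counts for probes of other genes are not given here.

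**Figure D2:**
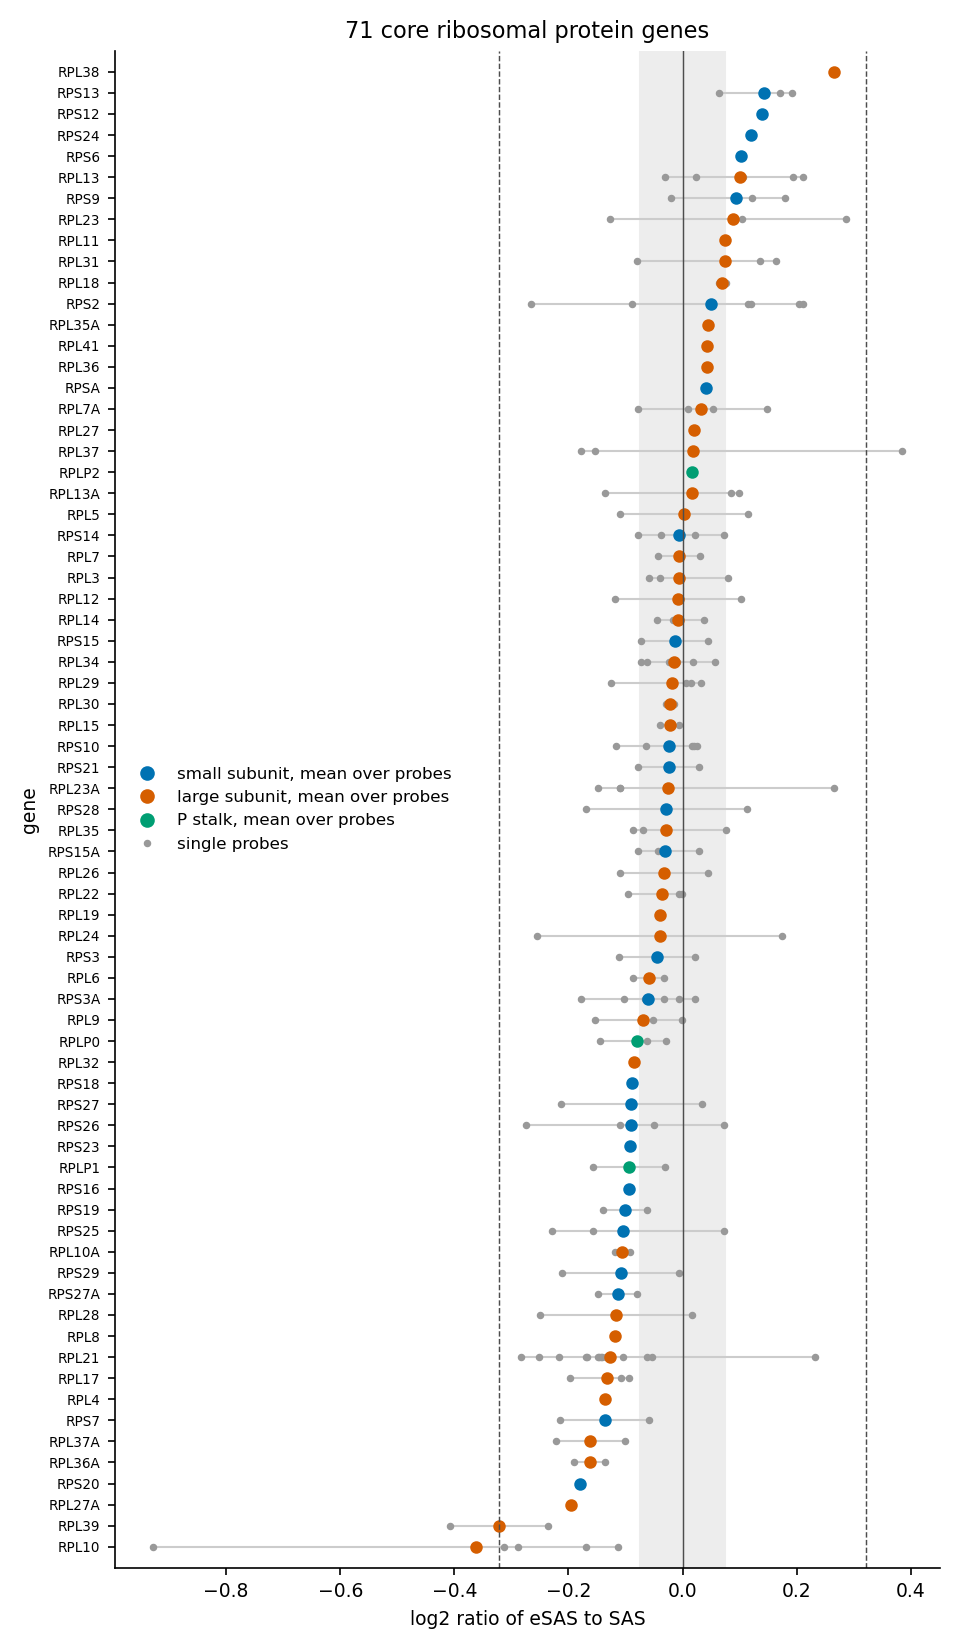
Log2 ratio of eSAS to SAS (x axis) for 71 core genes, in order (y axis); coloured points are means over the probes of a gene, grey points its single probes, the grey band is 1 SD between spots of the same probe to either side of 0, and the dashed lines mark 0.32 in either direction. RPL10 and RPL39 lie to the left of the lower line at -0.36 and -0.32, RPL38 is highest at 0.26, and single probes of many genes lie on both sides of 0.

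The small subunit genes had a median log2 ratio of -0.038 (SD 0.10, 30 genes), with 9 higher and 21 lower. The large subunit genes had a median of -0.023 (SD 0.11, 43 genes), with 14 higher and 29 lower.

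The P stalk is the flexible arm of the large subunit that recruits the translation factors with GTPase activity. RPLP0, its base, had 3 probes with signals of 92854 (the mean of 10 spots), 285578 and 244774 on the SAS array and 88825, 263250 and 213094 on the eSAS array. Each was dimmer on the eSAS array before scaling, and the log2 ratio of the gene was -0.079. RPLP1 had signals of 111459 and 110179 in SAS and 105020 and 95141 in eSAS, a log2 ratio of -0.094. RPLP2 had 108748 in SAS and 105947 in eSAS, a log2 ratio of 0.017. RPLP1 and RPLP0 thus lay slightly lower in eSAS, with every stalk probe within its software error of 0.20. Both genes lay just beyond the SD of repeated spots, 0.075. RPLP2 lay within that SD, as did RPLP0 with marked spots kept (-0.073).

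RPLP0 also gives that spread directly, because its first probe was spotted 10 times. The signals ran from 87740 to 99227 on the SAS array and from 81895 to 99390 on the eSAS array, so the ranges overlapped. Single spots gave log2 ratios from -0.17 to 0.15, 5 above and 5 below 0. Without the 1 spot marked on the eSAS array, the mean was -0.030 ± 0.085 (SD, n = 9 spots of 1 array pair). This spread arose within a single pair of arrays and holds no variation between cultures.

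RPSA, a small subunit protein also known as the laminin receptor, had a single probe with a signal of 636 in SAS and 630 in eSAS and a log2 ratio of 0.041. The array ties this probe to a cDNA clone and not to the RefSeq mRNA.

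Among core genes, RPL38 was the highest in eSAS. RPL38, which in mouse mutants was tied to the translation of Hox mRNAs, had a signal of 187304 in SAS and 216732 in eSAS. Its single probe was brighter on the eSAS array by a log2 ratio of 0.26, a 1.20-fold difference. Without background correction the ratio was 0.35, past the limit of 0.32.

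The next 4 were small subunit genes. RPS13 had 3 probes with signals of 203504, 86858 and 128877 in SAS and 204778, 95552 and 139777 in eSAS. All 3 were brighter in eSAS, with log2 ratios of 0.063, 0.19 and 0.17. RPS12 had signals of 22841 in SAS and 24214 in eSAS (log2 ratio 0.14), and RPS24, a gene mutated in Diamond-Blackfan anaemia, had 135391 and 141604 (0.12). RPS6, the target of the S6 kinases downstream of mTOR, had 297054 and 307218 (0.10). RPS12, RPS24 and RPS6 rest on 1 probe each, and quantile normalization put RPS6 at 0.

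RPL10, which sits near the catalytic centre and joins the large subunit late in assembly, was the lowest core gene with a log2 ratio of -0.36, 1.29-fold lower in eSAS. Its bright probes had signals of 149163, 155668, 108216 and 189217 in SAS and of 127730, 120616, 85353 and 168526 in eSAS. All 4 were lower in eSAS, with log2 ratios of -0.17, -0.31, -0.29 and -0.11. A dim probe of the same gene, at chrX:153283699-153283758 of hg18, had signals of 37.8 and 19.1 and a log2 ratio of -0.93. That probe set the mean of the gene: the median over the probes was -0.29 and the brightest probe alone gave -0.11, both within the limit of 0.32, as was -0.23 without background correction. A further RPL10 probe, on the opposite strand to the gene, was not well above background on either array and was not used.

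RPL39, which lines the exit tunnel of the large subunit, had signals of 128400 and 115409 in SAS and 93175 and 94320 in eSAS. Both RPL39 probes were lower in eSAS (-0.41 and -0.24), and the value of the gene, -0.32, was only just past the limit and was -0.29 after centring on the median. RPL27A had 71785 in SAS and 60394 in eSAS (-0.19), and RPS20 had 182074 and 154721 (-0.18). RPL27A and RPS20 rest on 1 probe each.

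RPL10 and RPL39 lie on chromosome X, where the probes of other genes were lower in eSAS as well. Over 816 such probes the median log2 ratio was -0.51 and 84.8% were below 0. On the autosomes, chromosome medians ran from -0.33 on chromosome 13 to 0.025 on chromosome 7. The core gene on chromosome 13, RPL21, had a log2 ratio of -0.13.

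Within 2 Mb on either side of RPL10, 81 probes of other genes had a median of -0.50, and 49 around RPL39 had -0.70. Around RPL21, 30 probes had a median of -0.40. Around RPL38, on chromosome 17, 102 probes had a median of -0.056. RPL10, RPL39 and RPL21 thus lay below 0 but nearer to it than their neighbours, whereas RPL38 lay above 0 and its neighbours near 0.

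Across 75 core genes the ratio of the gene and the median of its neighbours had a Pearson correlation of 0.49 and a Spearman correlation of 0.26. Without the 2 genes on chromosome X these were 0.18 and 0.20 over 73 genes. All points come from the same pair of arrays and genes are not independent replicates. Without the core genes that lie on chromosome X, the median of the other 73 was -0.026 and the SD was 0.092. The part of the values along chromosome X in those of RPL10 and RPL39 was not tested.

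**Figure D3:**
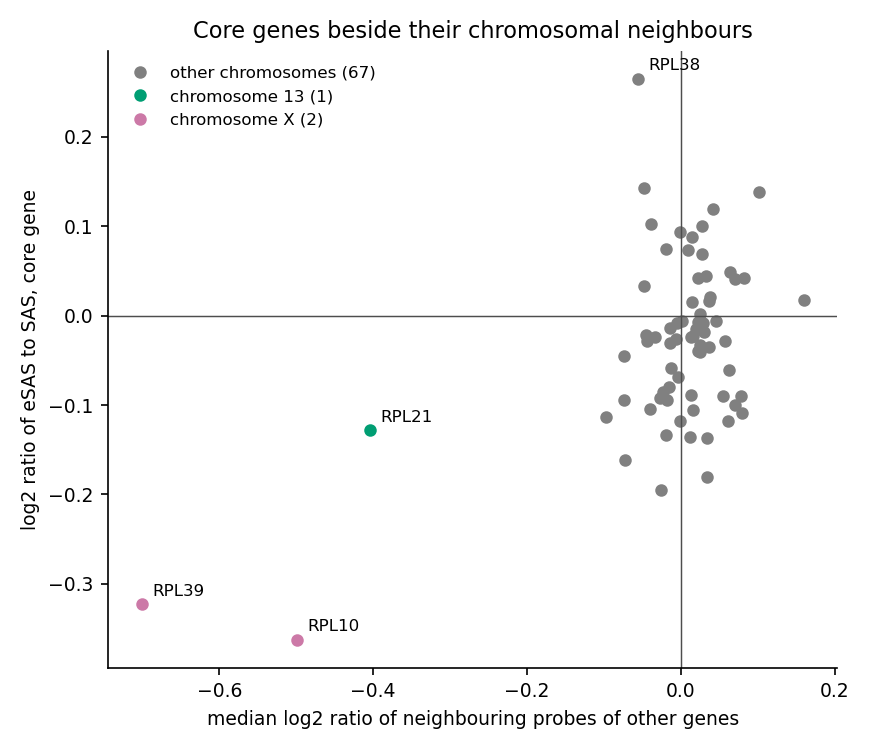
Log2 ratio of eSAS to SAS of 70 core genes (y axis) against the median log2 ratio of probes of other genes within 2 Mb on either side (x axis), 1 point per gene, coloured by chromosome. RPL39 and RPL10 on chromosome X and RPL21 on chromosome 13 stand apart on the left, with neighbour medians of -0.70, -0.50 and -0.40, and RPL38 is highest with a neighbour median of -0.056.

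RPS4X, the third core gene on chromosome X with a probe placed there, has no value. Its only probe had a signal of 114384 in SAS and 154838 in eSAS, and the software had marked its spot as uneven on the SAS array. With marked spots kept, its log2 ratio was 0.49, opposite in sign to RPL10 and RPL39. A probe of RPS7 and a probe of RPS10 were left out for the same reason, and they had similar log2 ratios, 0.43 and 0.49. The used probes of RPS7 had -0.059 and -0.22, and those of RPS10 ran from -0.12 to 0.024. The part of the marking in the value of RPS4X was not tested. All 3 marked spots lie in rows 450 to 510 of the 532 rows, a strip that held 196 of the 267 marked probe spots of the SAS array. The 15 unmarked core probes in the strip had a median log2 ratio of 0.063 and the 176 elsewhere -0.056, against 0.0068 and -0.0050 for probes of other genes. The part of the strip in these values was not tested beyond leaving it out, which gave a core median of -0.032. The gene RPL36A is also on chromosome X, but the array places both of its probes on chromosome 11, and their log2 ratio was -0.16.

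Core probes were set beside probes of other genes in the same range of signal, the mean of both arrays. Among signals of at least 100000, 79 core probes had a median of -0.038 and 145 other probes -0.036, and 36.7% of the former and 36.6% of the latter were above 0. From 30000 to 100000, 68 core probes had -0.075 with 30.9% above 0, and 793 other probes -0.032 with 38.5%. From 10000 to 30000, 22 core probes had -0.038 with 31.8% above 0, and 1574 other probes -0.0093 with 46.8%. The core median was thus close to that of other probes in the brightest range and lower than it in the next 2 ranges. Dimmer core probes were few. From 1000 to 10000, 11 of them had a median of -0.0016 with 45.5% above 0, and other probes -0.0014 with 49.7%. Below 1000, 11 core probes had 0.073 with 8 of the 11 above 0, and other probes -0.00022 with 49.95%. Opposite-strand probes of RPS2 and RPS9 are among these 11, as is an RPL37 probe in the strip of marked spots.

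**Figure D4:**
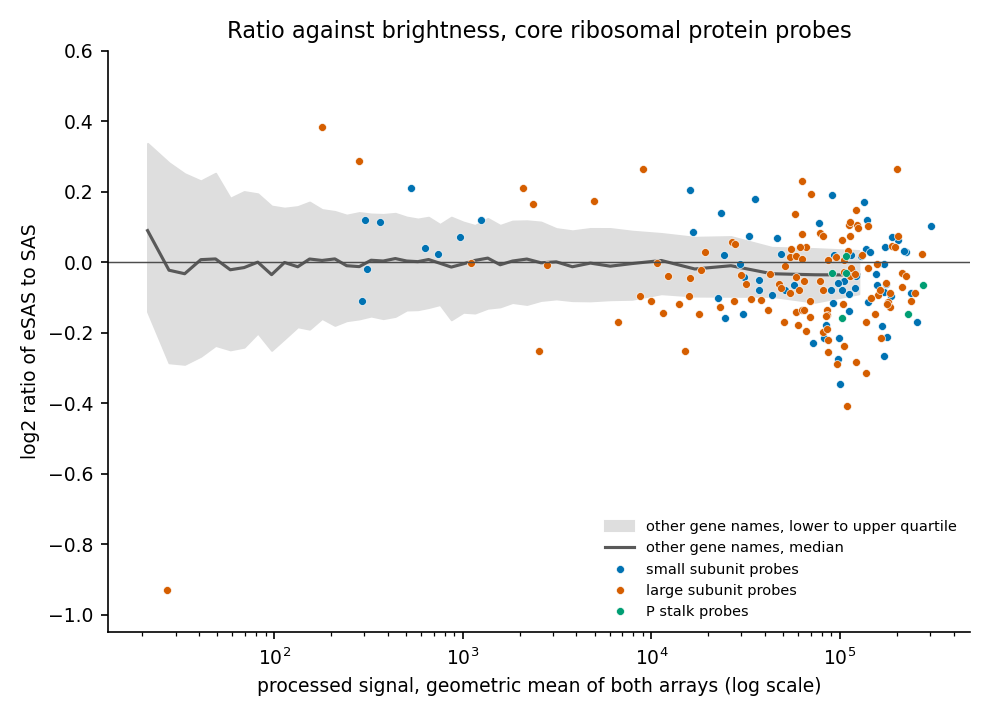
Log2 ratio of eSAS to SAS (y axis) against the processed signal on a log scale (x axis), as the geometric mean of both arrays; points are the 191 core probes, the line is the running median of probes of other gene names and the grey band runs from their lower to their upper quartile. The line falls slightly below 0 at the bright end, where most core probes lie, and the single point near -0.93 is the dim RPL10 probe.

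Probes of the same core gene could lie on both sides of 0. Of the 54 core genes with at least 2 probes, 33 had probes on both sides, 18 had all probes below 0 and 3 had all above. These counts depend on where the scaling puts 0, and the share over all gene names is not given here. Over all members, 27 of 284 probe pairs of 1 gene (9.51%) differed by at least 0.32, against 13.5% of 9837 pairs over all gene names. The share for members was 4.23% with median pixels and no background correction, and 6.19% without array rows 450 to 510. The median difference within a pair was 0.089 for members and 0.11 for all. With probes tied to the RefSeq mRNA on the chromosome and strand of the gene, 10 of 187 member pairs (5.35%) differed that much.

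The widest range was that of RPL10, given above, at 0.82. RPL37 followed with 0.56. Its probes for the RefSeq mRNA had signals of 74231 and 64777 in SAS and 64251 and 55108 in eSAS, log2 ratios of -0.15 and -0.18. A probe for an Ensembl transcript downstream had 160 and 202, a log2 ratio of 0.39, and lay in row 504, within the strip of marked spots. The gene value of 0.017 is the mean of these unlike probes, and without that row range it was -0.17.

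RPL21 had 14 probes with log2 ratios from -0.28 to 0.23. Of these, 9 lie on its own locus on chromosome 13 of hg18 and 5 are placed on chromosome 10. Its brightest probe had 181032 in SAS and 150116 in eSAS (-0.22). The only probe above 0 had 59385 and 67129 (0.23), is placed on chromosome 10 and lies in row 454. RPL21 has many processed pseudogenes, so RNA of such near-identical copies could not be told apart by probe.

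RPS2 had 6 probes on both sides of 0. The brightest, with signals of 249560 and 191622 in SAS and 226036 and 153539 in eSAS, had log2 ratios of -0.088 and -0.27. The remaining probe for the same RefSeq mRNA, with 15297 and 16971, had 0.20. The other 3 probes, tied to other GenBank entries, had signals of 1228 or less in SAS and log2 ratios from 0.11 to 0.21, and 2 of them lie on the opposite strand. RPL24 had a probe with 96450 and 77866 (-0.25) and a probe with 4788 and 5201 (0.17), and so a range of 0.43.

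A dimmer probe was not regularly the higher of a gene. In 29 of 54 core genes (53.7%) the probe with the lowest signal had a higher log2 ratio than the probe with the highest signal, against 50.1% of 5277 other gene names. In all, 14 member probes are placed on another chromosome or strand than their gene. Without them the core median was -0.028 and 23 genes were higher, a setting chosen after the data were seen.

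Paralogs are gene copies whose proteins can replace a core protein in some tissues, and they were measured beside their parents. RPL10L, an intronless copy of RPL10 on chromosome 14 known from the testis, had a signal of 55637 in SAS and 41287 in eSAS. Its log2 ratio of -0.38 was the lowest gene value of all members and stood beside -0.36 for RPL10. The copies are near identical, so RNA of RPL10 may bind the RPL10L probe, and the share of each was not tested. RPL10L was the only one of the 8 paralogs past 0.32 in either direction, at 1.30-fold lower. Over all gene names, 9.17% were higher and 11.9% lower by that much.

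RPS27L, a p53 target, had 12942 in SAS and 14299 in eSAS, a log2 ratio of 0.20. Its parent RPS27 had 107828 and 218950 in SAS and 89560 and 215767 in eSAS, with -0.21 and 0.033 for the probes and -0.090 for the gene. RPL39L, known from testis and tumours, had 2111 and 2214 (0.12) beside -0.32 for RPL39. By gene value both paralogs were thus higher in eSAS and their parents lower, though the brighter RPS27 probe was not lower. Each of the paralogs rests on 1 probe, within its software error of 0.20.

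The other paralogs stayed close to 0 and to their parents. RPL22L1 had 82405 and 75644 (-0.069) and RPL22 had -0.035 over 4 probes. RPL36AL had 44279 and 40732 (-0.066) beside -0.16 for RPL36A. RPL26L1 had 0.041 over 3 probes and RPL26 -0.033 over 2. RPL7L1 had 0.0099 and RPL7 -0.0065. RPL3L, known from striated muscle, had a low signal of 72.8 in SAS and 69.1 in eSAS (-0.023), and RPL3 had -0.0068 over 3 probes.

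The pseudogene names gave log2 ratios from -0.14 for RPL31P4 to 0.096 for RPL32P3, with RPL31P10 at -0.090, RPL23AP13 at -0.0046, RPL29P2 at 0.046 and RPL23AP7 at 0.091. Only 1 of the 2 RPL32P3 probes was well above background on both arrays, and the other on neither. RPL23AP13 is the array's name, and RefSeq now lists the entry of both its probes as RPL23AP32. The probe left out of its value had signals of 36.7 in SAS and 10.0 in eSAS, where it was not well above background. With its eSAS signal raised to 15.2, the lowest well above background on that array, it was 2.32-fold lower there. This is not a strict bound, because some probes fail that call at higher signals than others pass it. The software's error for its log2 ratio was 0.61. RPL23AP13 and RPL32P3 were the members, besides RPL10, with a probe not well above background on both arrays. RPS19BP1 had 5367 in SAS and 4909 in eSAS (-0.074).

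Proteins of the ribosome that the name rule missed fell into the same range. FAU, a ubiquitin-like fusion with a small subunit protein, had -0.018. RACK1, a signalling scaffold on the small subunit, had 77221 in SAS and 83234 in eSAS on its single probe, a log2 ratio of 0.16.

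For ribosomal proteins of the mitochondria the median was 0.0032 (SD 0.10, 75 gene names), with 39 higher (52.0%) and 36 lower, beside 49.8% higher over all gene names. The lowest was MRPS31 at -0.30 and the highest MRPS30 at 0.33, the only one past 0.32. Of all gene names, 9.17% were higher and 11.9% lower by that much. Ribosome biogenesis factors, which process rRNA and assemble the subunits, had a median of 0.076 over 46 genes, with 35 higher (76.1%) and 11 lower. None of them was higher by 0.32 or more, against 9.17% of all gene names, and 2 of 46 were lower by that much, against 11.9%. NOLC1, a nucleolar chaperone, was highest at 0.28. The 2 lower were UTP14A at -0.49 and DKC1, the pseudouridine synthase of ribosomal and telomerase RNA, at -0.36, and both lie on chromosome X. DKC1 was named after its value was seen.

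The translation factors of the TOP class had a median of 0.037 over 18 genes, 11 higher (61.1%, beside 49.8% of all gene names) and 7 lower. EIF3F was highest at 0.27 and NAP1L1, a histone chaperone with a TOP mRNA, lowest at -0.37. Among RNA polymerase I factors, which transcribe rRNA, 6 of 9 were higher (66.7%, median 0.016), with TAF1A at 0.27 and POLR1D at -0.29. Without scaling every log2 ratio fell by 0.054, which put the medians of the mitochondrial, TOP class and RNA polymerase I lists below 0 and left that of ribosome biogenesis above it.

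**Figure D5:**
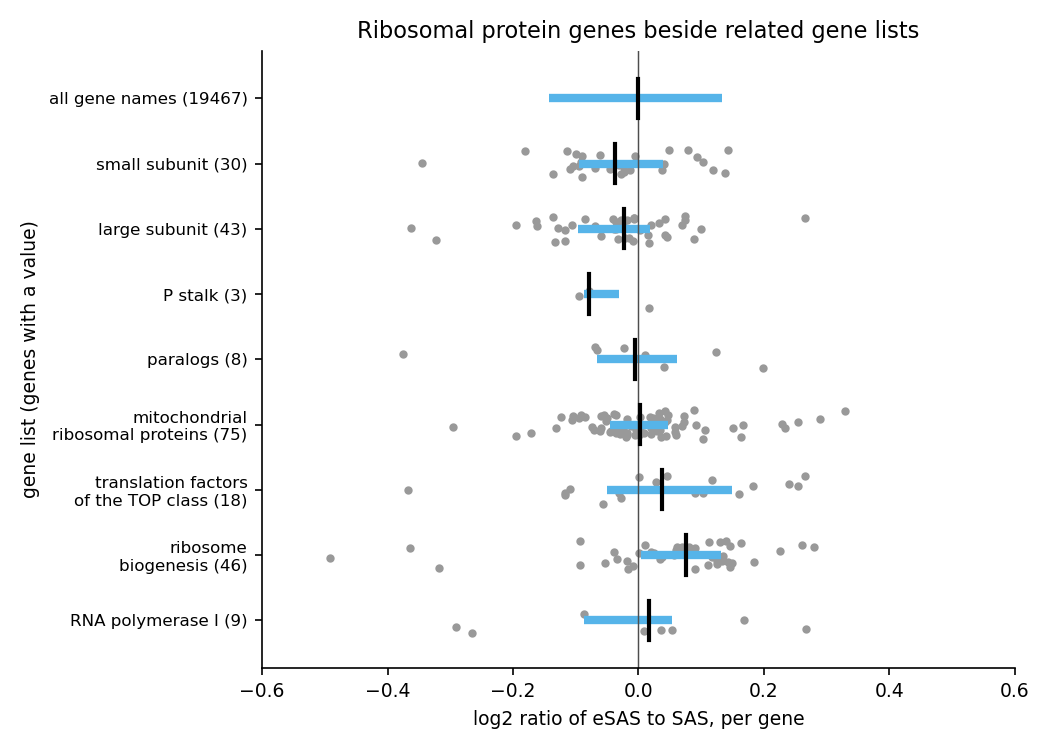
Log2 ratio of eSAS to SAS per gene (x axis) for the gene lists (y axis, number of genes with a value in brackets); black bars are medians, blue bars run from the lower to the upper quartile, and grey points are single genes, not drawn for all gene names. The core ribosomal protein lists lie slightly left of 0, at -0.038, -0.023 and -0.079, and ribosome biogenesis slightly right, at 0.076.

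Among the core genes with a start in the table, those with a TOP tract had a median log2 ratio of -0.024 (46 genes, 17 higher) and those without -0.069 (15 genes, 1 higher). Over all gene names 49.8% were higher, and the difference between the 2 groups was not tested. A tract counted only at the annotated start itself. For RPL10A, RPL17, RPL19, RPL4, RPL9, RPS26 and RPS28, counted as without, a run of C and T lies a few bases from that start. The start of RPS7, also counted as without, lies inside such a run. The group without is thus set by the annotated start and is not free of such runs. The ranges overlapped, from -0.36 to 0.26 with a tract and from -0.14 to 0.021 without.

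The label of the cells was checked against squamous and general epithelial markers. All 10 of KRT5, KRT14, KRT6A, KRT17, TP63, DSG3, SFN, PERP, CDH1 and EPCAM were well above background on both arrays. KRT6A was the dimmest of them, with signals of 46.9 in SAS and 32.7 in eSAS. Of the 9 with a value, 8 were lower in eSAS, so 11.1% were higher against 49.8% of all gene names. The median of the 9 was -0.48, with a range from -3.9 for KRT14 to 0.040 for EPCAM. Their part in the ribosomal protein values was not tested. Of 11 markers of blood, endothelium and fibroblasts, 7 were not well above background on either array, among them PTPRC, CD3E, PECAM1, COL1A2, COL3A1 and DCN. CD14 was above background on both arrays with signals of 215 in SAS and 233 in eSAS, and VWF with 86.0 and 77.1 on 1 of its 2 probes. COL1A1 was so in SAS alone (15.2, against 6.02 in eSAS) and LUM in eSAS alone (29.6, against 3.21 in SAS).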

How the data were processed

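RNA of SAS and eSAS cells was hybridised to 1-colour Agilent arrays, 1 per group. The authors deposited scanner output with linear intensity values, made with Agilent Feature Extraction 10.7.3.1 per the submitters' processing notes. The processed signal was corrected for background and spatial trends and not scaled between arrays. The deposited series table equals it. The scaling behind the study's own fold changes is not given in the sources used here.

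Control spots were left out. Some results for single genes are not reported here, and counts over lists include them. Log2 signals were set relative to the 75th percentile of each array, marked spots were removed, repeated spots were averaged per probe, and probes well above background in more than 50% of their spots on both arrays were averaged per gene name. The paralogs and parents, stalk genes, RPSA, 5 highest and 5 lowest core genes, 5 widest probe ranges, dim members, other ribosome genes and list extremes are named. The members and lists were chosen with earlier results of these data known. Member names are the array's, and starts and current symbols are from RefSeq (GRCh38.p14). By accession 192 member probes matched it, 2 of them under another symbol now. Probe positions are the array's, in hg18. Alternatives covered scaling, background correction, filters, probe summaries and array rows. Python 3.11.15 and R 4.3.3 with limma 3.58.1 were used, and the averaging was tested on simulated data.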

Additional observations from a re-analysis of the deposited data

How the results depend on the processing

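No paired analysis was possible because each group has 1 array. For the same reason no replicate could be left out, and a slide block was not run because both arrays lie on 1 slide. The core genes higher in eSAS, 24 as reported, numbered 12 without scaling and 41 with centring on the median. The median of all gene names was -0.056 and 0.033 there. The core genes lower by at least 0.32, 3 as reported, numbered 1 with centring on the median and 1 after quantile normalization. The core genes higher by at least 0.32, 0 as reported, numbered 1 without background correction with mean pixels and 1 with median pixels, where RPL38 had 0.35 and 0.37, and 1 with marked spots kept, where it was RPS4X at 0.49. The share of within-gene probe pairs at least 0.32 apart, 9.51% as reported, was 4.23% with median pixels and 6.19% without rows 450 to 510. Normexp with an offset of 50 moved every result: the core median to -0.61, the median of all gene names to 0.68, the SD to 0.25, the pairs apart to 20.4%, and the core genes to 3 above 0, 2 past 0.32 and 68 below -0.32. Fitted without spots whose local background was marked, a setting chosen after the data were seen, normexp gave a core median of -0.024 with 1 gene past 0.32 (RPL38, 0.36) and 1 below -0.32. The core median stayed within 0.075 of the reported value under every alternative other than normexp on all spots. Of 91 gene values, at most 3 moved by more than the SD between spots under those alternatives, except that 26 moved when the brightest probe stood for the gene. For RPL10 the value ran to -0.23 without background correction.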
